A study of Homo sapiens with 4 samples.

Results

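The collagen genes were the 44 of 58365 rows in the expression table whose symbol is COL, a number, the letter A and a number, each with a single row. Membership rested on the symbol alone and on no measured value. They comprise 11 genes of fibrillar collagens, 6 of the basement membrane collagen type IV and 27 of other types: 5 of type VI, 10 of the fibril-associated collagens with interrupted triple helices (FACIT), 3 of the network-forming types VIII and X, 2 multiplexins, 4 transmembrane collagens and 3 others (COL7A1, COL26A1 and COL28A1).

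The 4 RNA-seq libraries came from the human embryonic stem cell line H1, an established line, which was driven stepwise toward blood cells in culture and collected at day 8. Both groups received activin A (40 ng/ml) and BMP4 (50 ng/ml) for 2 days, then VEGF (40 ng/ml) and bFGF (50 ng/ml) for 3 days, and VEGF and bFGF at these concentrations again for the last 3 days. In those last days the solvent DMSO was present for 2 libraries, and for the other 2 the medium held SB431542 (SB), an inhibitor of the type I receptor kinases of the TGFβ and activin branch. The comparison asked which genes differ when TGFβ signaling is blocked while blood cells emerge from endothelium. The study describes collecting CD31-positive cells, which the labels leave out. A single cell line and a single compound were used, and no genotype differed.

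Collagens are triple helices of α chains, made of 1, 2 or 3 different gene products. Fibrillar collagens are made as procollagens, lose their end propeptides outside the cell and pack into fibrils, whereas type IV forms the sheet-like network beneath endothelium and epithelium, and type VI forms beaded filaments near cell surfaces. TGFβ is a well-known inducer of collagen and collagen-modifying genes in fibroblasts and other matrix-producing cells.

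Values were FPKM, fragment counts divided by transcript length and by the mapped total of a library, which compare genes per length. The FPKM of all rows summed to between 570844 and 612614 per library, and between 14183 and 14372 genes reached 1 FPKM. The number of fragments is unknown, and by the smallest steps between low values the shallowest library (SB replicate 1) had 75.5% of the relative depth of the deepest (SB replicate 2). Libraries with the same replicate number were alike in technical measures: mitochondrial genes held 5.88% and 6.64% of FPKM in the replicates numbered 1 and 9.92% and 10.2% in those numbered 2. Differences are therefore also given within each number. The CD31 gene PECAM1 had 197 and 163 FPKM with DMSO and 182 and 153 FPKM with SB, and 10 of 10 endothelial markers reached 1 FPKM.

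In DMSO-treated cells the collagen genes were led by COL6A2, COL4A2, COL18A1, COL4A1, COL1A2, COL3A1 and COL1A1 in order of mean level. The summed level of the 44 genes was 1599.8 and 1253 FPKM in the DMSO libraries and 979 and 818 FPKM in the SB libraries. Both SB sums lay below both DMSO sums, with means of 1427 ± 245 FPKM (SD, n = 2) and 899 ± 113 FPKM (SD, n = 2), a mean 37.0% lower with SB. Within replicate numbers 1 and 2 the sum was 38.8% and 34.7% lower. Of all FPKM in a library, collagen genes made up 0.269% and 0.220% with DMSO and 0.160% and 0.138% with SB. In bulk RNA, fewer cells that make a transcript and less transcript per cell cannot be told apart. With 2 libraries against 2, an exact two-sided permutation test cannot give a p below 0.333, so no p is given for sums.

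**Figure D1:**
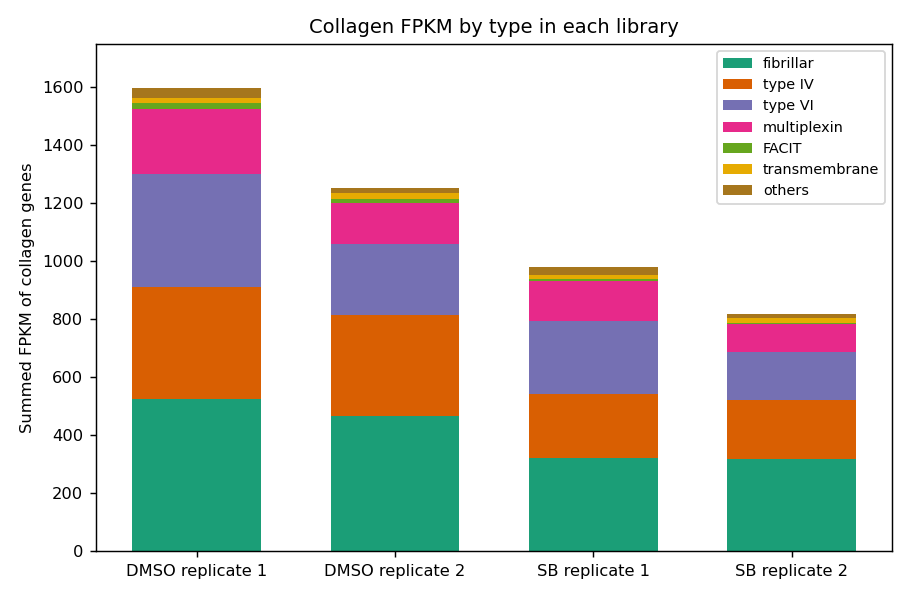
Summed FPKM of the 44 collagen genes (vertical axis, from 0) as 1 stacked bar per library, with colors for collagen types. The fibrillar segment is 524 and 466 FPKM in the DMSO bars and 319 and 318 FPKM in the SB bars, and the type IV segment 386 and 347 FPKM against 224 and 203 FPKM.

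Each main type had a lower mean sum with SB. Fibrillar genes summed to 524 and 466 FPKM with DMSO and 319 and 318 FPKM with SB, a mean 35.6% lower. Type IV genes were 41.8% lower by the same measure. Type VI genes summed to 392 and 248 FPKM with DMSO and 253 and 165 FPKM with SB, so that these groups overlapped. Multiplexins summed to 223 and 141 FPKM against 137 and 95.9 FPKM. FACIT genes had little RNA, 20.9 and 15.5 FPKM against 7.52 and 6.41 FPKM. As a share of the collagen total, fibrillar genes held 32.8% and 37.2% with DMSO and 32.6% and 38.9% with SB, with the libraries numbered 2 higher in each group. Within them, the type I and III chains held 21.1% and 23.7% with DMSO and 16.3% and 19.5% with SB, without overlap. The FACIT share was 1.31% and 1.24% against 0.768% and 0.783%, also without overlap.

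Of the 44 genes, 26 had a mean of at least 1 FPKM in at least 1 group and were tested with limma on log2(FPKM + 1), a scale that understates differences of low genes. Of these, 0 passed an adjusted p of 0.05 over all 14909 genes tested, against 20 of all genes (0.134%). This fit left out the replicate number, and the count of 0 depends on that, as described in the last section. At an unadjusted limma p under 0.05, 13 collagen genes were lower with SB (50.0% of those tested, against 5.16% of all genes) and 1 was higher (against 4.8% of all genes). The count of 14 was 9 when either SB library was left out and 11 or 12 without a DMSO library. In 19 collagen genes both SB libraries lay below both DMSO libraries (16% of all genes), and in 2 they lay above (21.5% of all genes). A log2 fold change of at least 1 in size was found for 7 lower genes (2.16% of all genes) and 1 higher gene (1.56% of all genes). Within both replicate numbers 22 genes were lower (30.6% of all genes) and 2 were higher (40.9% of all genes). COL2A1 and COL24A1 were the 2 higher ones.

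The median log2 fold change of the 26 tested genes was −0.53, against 0.04 over all genes tested, and −0.60 and −0.49 within replicate numbers 1 and 2. It was −0.73 for fibrillar genes, −0.69 for type IV and −0.47 for the other types. COL11A2 and COL9A3 reached the 1 FPKM limit in the DMSO group only, so the filter favored their lower sign. Both are among the genes counted above as lower without overlap and as lower within both replicate numbers. These counts and medians therefore describe the tested genes and not the family. Over all members without the limit the median was −0.33.

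**Figure D2:**
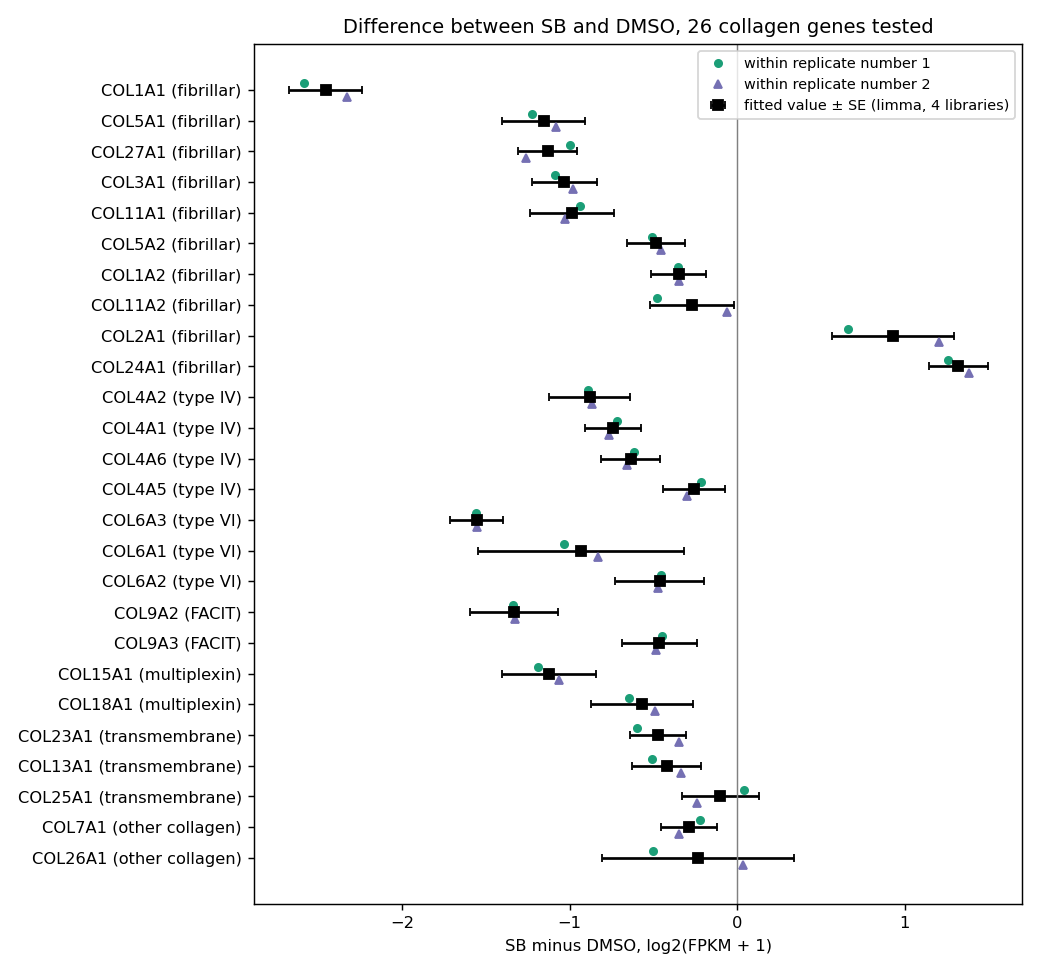
Difference between SB and DMSO on the log2(FPKM + 1) scale (horizontal axis) for the 26 tested collagen genes by type; squares with bars are limma estimates ± SE over 4 libraries, circles and triangles the differences within replicate numbers 1 and 2. COL1A1 lies farthest to the left at −2.46 and COL24A1 farthest to the right at 1.32.

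Among the fibrillar genes, the type I, III and V chains, which build the fibrils of most connective tissues, held most of the RNA. COL1A1 (ENSG00000108821.13, chr17:50183289-50201632 on GRCh38, minus strand) encodes the α1 chain of type I collagen, present as a pair in each molecule. Its level was 107 and 78.5 FPKM with DMSO and 17.1 and 14.8 FPKM with SB. Both SB libraries were far below both DMSO libraries. The log2 fold change was −2.46 ± 0.22 (SE; limma adjusted p = 0.0646), which ranked 25 from the lowest of 14909 genes. It was −2.59 and −2.33 within the replicate numbers. Among the other scalings, its limma adjusted p was 0.0380 with quantile normalization, 0.0435 with libraries set to equal FPKM sums and 0.0718 with upper-quartile scaling. The scaling to equal sums was chosen after seeing the data.

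COL1A2 (chr7:94394561-94431232), the α2 chain that completes the type I molecule, differed far less. Its level was 112 and 123 FPKM with DMSO and 87.2 and 96.5 FPKM with SB. The groups did not overlap, but the log2 fold change of −0.35 ± 0.16 had an adjusted p of 0.607. The FPKM ratio of COL1A1 to COL1A2 was 0.962 and 0.639 with DMSO and 0.196 and 0.154 with SB, a mean difference of −2.18 in log2 ratio. The 2 chains of this collagen thus stood at near equal RNA levels in 1 DMSO library and at unequal levels in both SB libraries. By mean level COL1A1 ranked 7th of the 44 collagen genes with DMSO and 13th with SB, while COL1A2 ranked 5th and 4th.

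COL3A1 (chr2:188974320-189012746) encodes the single chain of type III collagen, which is found with type I in vessel walls and soft tissues. Its level was 119 and 95.3 FPKM with DMSO and 55.3 and 47.9 FPKM with SB (log2 fold change −1.03 ± 0.19, adjusted p = 0.200). The type I and III chains together summed to 338 and 297 FPKM with DMSO and 160 and 159 FPKM with SB, a mean 49.7% lower.

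Type V collagen nucleates type I fibrils and sets their width. Its α1 chain COL5A1 stood at 61.3 and 43.2 FPKM with DMSO and 25.7 and 19.9 FPKM with SB (−1.15 ± 0.25, adjusted p = 0.245). Its α2 chain COL5A2 stood at 59.3 and 66.5 FPKM against 41.3 and 48.2 FPKM (−0.48 ± 0.17, adjusted p = 0.476). As in type I, the α1 chain was lower by the larger amount. The COL5A1 to COL5A2 ratio was 1.03 and 0.650 with DMSO and 0.621 and 0.412 with SB, a mean log2 difference of −0.70, and the groups were separated by only a small gap. COL5A3, the chain of a rarer type V form, reached at most 0.0196 FPKM.

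Type XI collagen plays the matching role in cartilage fibrils. COL11A1 was at 12.6 and 17.9 FPKM with DMSO and 6.11 and 8.28 FPKM with SB (−0.98 ± 0.25, adjusted p = 0.308). COL11A2 had means of 1.10 FPKM with DMSO and 0.727 FPKM with SB (−0.27, adjusted p = 0.839). COL27A1, a fibrillar collagen of cartilage and developing tissues, was at 10.1 and 10.4 FPKM against 4.58 and 3.77 FPKM (−1.13 ± 0.18, adjusted p = 0.144).

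The other two fibrillar genes had higher values with SB. COL24A1 (ENSG00000171502.14, chr1:85729233-86156943, minus strand) encodes a fibrillar collagen known from developing bone and eye. Its level was 16.1 and 17.4 FPKM with DMSO and 39.9 and 47.0 FPKM with SB, with no overlap. The log2 fold change was 1.32 ± 0.17 (adjusted p = 0.105), the highest among the collagen genes and rank 112 from the top of all 14909 genes. The within-number values of 1.26 and 1.39 were close to each other. By mean level it stood 15th of 44 with DMSO and 8th with SB.

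COL2A1 (chr12:47972965-48004486) encodes the main fibrillar collagen of cartilage, vitreous and notochord. Its level was 25.7 and 12.9 FPKM with DMSO and 41.2 and 30.9 FPKM with SB (0.93 ± 0.36, adjusted p = 0.508). The groups did not overlap, although on the log2 scale the DMSO libraries differed from each other by about as much as the group means did. The log2 fold change was 0.46 without DMSO replicate 2 and 1.40 without DMSO replicate 1.

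**Figure D3:**
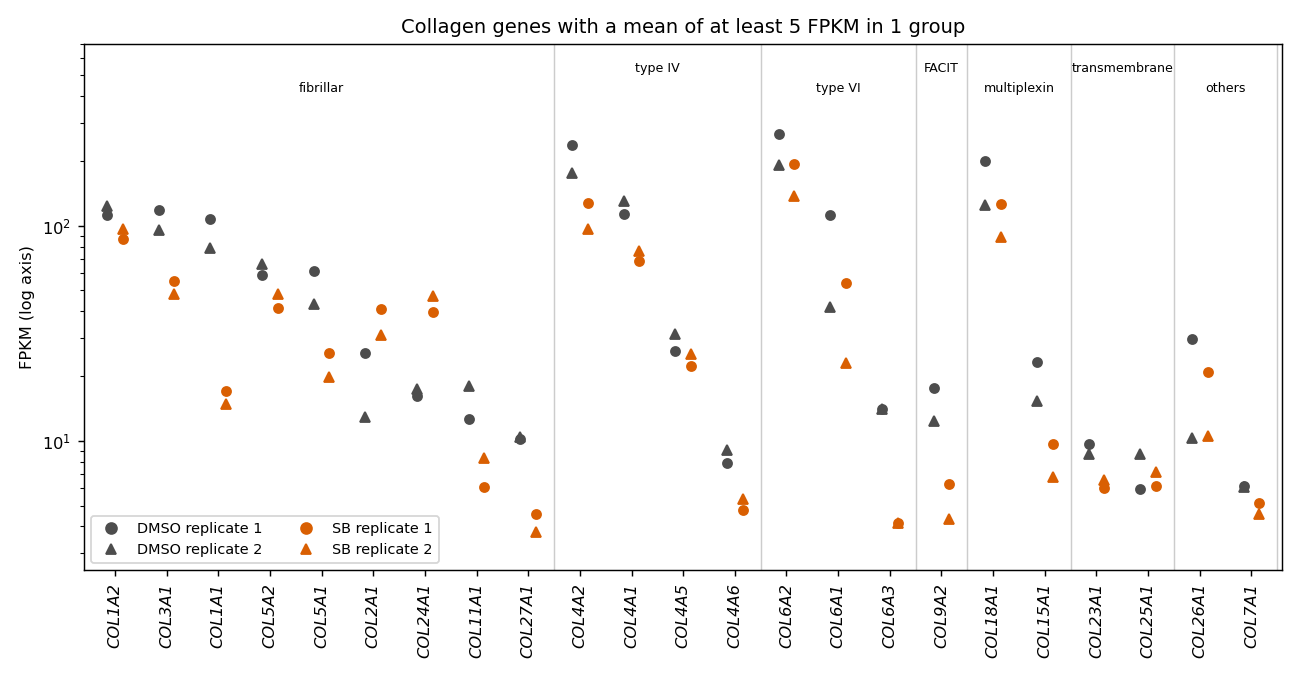
Level of each of the 23 collagen genes with a mean of at least 5 FPKM in a group (vertical axis, FPKM on a log scale), by type, with 1 point per library, color for DMSO or SB and shape for the replicate number. COL1A1 and COL6A3 show the widest gaps downward, and COL24A1 lies at 39.9 and 47.0 FPKM with SB above 16.1 and 17.4 FPKM with DMSO.

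**Figure D4:**
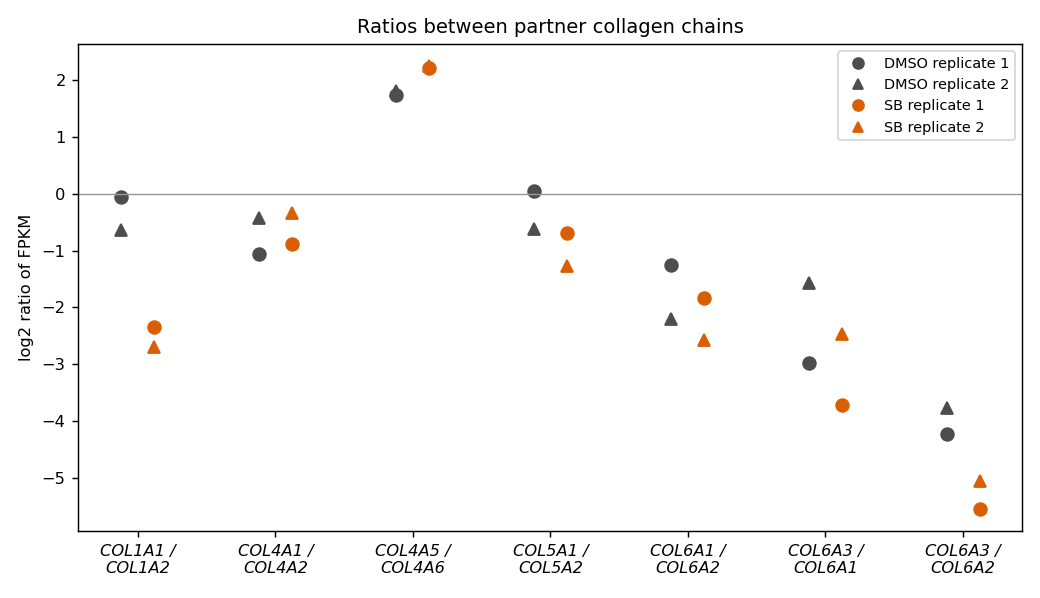
Log2 ratio of FPKM between chains of 1 collagen type (vertical axis), with 1 point per library for each pair of chains. For COL1A1 over COL1A2 the DMSO libraries lie at −0.06 and −0.65 and the SB libraries at −2.35 and −2.70, whereas for COL4A1 over COL4A2 the groups overlap.

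Type IV collagen of most basement membranes contains 2 α1 chains for each α2 chain. COL4A1 (chr13:110148963-110307149) was at 114 and 130.4 FPKM with DMSO and 68.8 and 76.3 FPKM with SB (−0.74 ± 0.17, adjusted p = 0.264). COL4A2 (chr13:110305812-110513027) was at 238 and 176 FPKM against 128 and 96.1 FPKM (−0.88 ± 0.24, adjusted p = 0.338). Neither gene's groups overlapped. Their ratio was 0.478 and 0.741 with DMSO and 0.538 and 0.794 with SB, and it followed the replicate number rather than the treatment. The loci of these 2 genes overlap in the table on opposite strands, and strand use in counting is not stated.

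COL4A5 and COL4A6, chains of basement membranes in kidney, skin and smooth muscle, lay lower. COL4A5 was at 26.02 and 31.4 FPKM with DMSO and 22.2 and 25.4 FPKM with SB (−0.26, adjusted p = 0.765), and its log2 fold change ran from −0.39 without DMSO replicate 1 to −0.13 without DMSO replicate 2. COL4A6 was at 7.85 and 9.02 FPKM against 4.78 and 5.35 FPKM (−0.64, adjusted p = 0.339). The COL4A5 to COL4A6 ratio was 3.32 and 3.49 with DMSO and 4.65 and 4.74 with SB, a mean log2 difference of 0.47 with no overlap. COL4A3 and COL4A4, chains of the glomerular basement membrane, reached at most 0.0130 and 0.124 FPKM.

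The 6 type IV genes lie in 3 head-to-head pairs, each pair read in opposite directions from neighboring start sites. By RefSeq starts on GRCh38.p14, 126 bases separate COL4A1 from COL4A2, 379 separate COL4A6 from COL4A5 and 418 separate COL4A4 from COL4A3. The DNA between the first pair is shown because both genes start from it, next to the 250 bases before COL4A5. Capitals mark CAGAC or its reverse complement GTCTG, the short element bound by SMAD proteins, which carry the TGFβ signal to DNA. The first lies at chr13:110307158-110307283 and the second at chrX:108439588-108439837, both written on the plus strand, 5′ to 3′.
COL4A1 and COL4A2: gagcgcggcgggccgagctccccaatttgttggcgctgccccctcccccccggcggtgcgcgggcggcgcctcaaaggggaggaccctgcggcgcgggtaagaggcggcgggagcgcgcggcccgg
COL4A5: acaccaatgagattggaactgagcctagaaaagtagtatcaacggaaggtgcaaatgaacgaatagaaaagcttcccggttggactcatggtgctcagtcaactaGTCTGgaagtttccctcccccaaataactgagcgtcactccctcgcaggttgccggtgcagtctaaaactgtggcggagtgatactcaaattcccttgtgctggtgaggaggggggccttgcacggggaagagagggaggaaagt
The shared COL4A1 and COL4A2 stretch is 80.2% G or C and holds 1 GC box (GGGCGG) and 1 CCAAT box, with 0 matches to CAGAC on either strand. The COL4A5 stretch is 51.2% G or C and holds 1 match to CAGAC and 2 CCAAT boxes. It lies within the 379 bases between the COL4A6 and COL4A5 starts, so it too is part of a stretch between 2 genes. COL4A1 and COL4A2 were the more abundant pair, with log2 fold changes of −0.74 and −0.88 against −0.26 and −0.64 for COL4A5 and COL4A6. A link between these sequences and the fold changes was not tested.

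RefSeq promoter sequence was at hand for 32 of 44 members and 19 of the 26 tested, including those just shown. The tested genes without it were COL1A1, COL1A2, COL2A1, COL3A1, COL5A2, COL6A1 and COL9A3. The counts below therefore do not cover the type I and III chains or COL2A1. For each gene the 250 bases before the start nearest to the 5′ end of its locus in the table were searched. CAGAC on either strand occurred in 12 of the 32 and in 8 of the 19, against 38.0% of 35116 windows of 250 bases before the start of any gene. The palindrome GTCTAGAC, a stronger SMAD site that overlaps no CAGAC match, was in 0 of 32 and in 0.182% of all windows. GC boxes were in 12 of the 19 (42.6% of all windows), CCAAT boxes in 5 (32.0%) and TATAAA in 3 (10.7%), also counted on both strands. Where any RefSeq start of a gene counted, CAGAC was found for 13 of the 32 and GC boxes for 14 of the 19. The median share of G and C was 70% in windows of the tested members and 58% in all windows. A match describes letters only and marks no bound site.

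The windows of COL24A1, the gene with the highest difference, and of COL9A2 and COL27A1, 2 of those lower by a log2 fold change of over 1, are given for comparison. They lie at chr1:86156773-86157022 (minus strand), chr1:40317295-40317536 (minus strand, 242 bases after removal of an annotated exon) and chr9:114155287-114155536 (plus strand) on GRCh38.p14, with CAGAC or GTCTG in capitals. The RefSeq starts used for COL24A1 and COL9A2 lie inside the deposited loci. The COL9A2 stretch and part of the COL24A1 stretch therefore lie inside them too.
COL24A1: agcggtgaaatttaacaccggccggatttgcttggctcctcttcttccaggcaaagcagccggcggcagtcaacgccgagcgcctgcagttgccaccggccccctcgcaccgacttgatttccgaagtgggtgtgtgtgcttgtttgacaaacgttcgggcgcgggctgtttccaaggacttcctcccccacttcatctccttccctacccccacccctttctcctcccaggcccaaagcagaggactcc
COL9A2: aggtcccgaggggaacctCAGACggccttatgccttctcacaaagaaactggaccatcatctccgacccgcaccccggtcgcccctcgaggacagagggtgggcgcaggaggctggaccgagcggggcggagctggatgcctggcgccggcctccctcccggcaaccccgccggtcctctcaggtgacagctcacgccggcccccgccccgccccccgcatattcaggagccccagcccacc
COL27A1: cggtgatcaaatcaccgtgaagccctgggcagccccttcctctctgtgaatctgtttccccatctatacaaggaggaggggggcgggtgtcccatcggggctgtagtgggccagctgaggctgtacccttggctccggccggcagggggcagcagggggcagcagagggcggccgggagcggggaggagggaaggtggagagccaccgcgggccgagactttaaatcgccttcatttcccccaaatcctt
COL24A1, for which the more distal of 2 RefSeq starts was taken, had 0 matches to CAGAC, GC box or CCAAT box. COL9A2 had 1 match to CAGAC and 3 GC boxes, and COL27A1 had 0 and 2.

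Type VI collagen is assembled from 1 chain each of COL6A1, COL6A2 and COL6A3 in its usual form. COL6A3 (ENSG00000163359.15, chr2:237324003-237414375, minus strand) encodes the long α3 chain. It was at 14.1 and 14.0 FPKM with DMSO and at 4.13 FPKM in both SB libraries. The replicates of this gene were almost identical, and the log2 fold change of −1.56 ± 0.16 had an adjusted p of 0.0753, with rank 106 from the lowest of all genes.

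The COL6A1 level was 112 and 41.7 FPKM with DMSO and 54.1 and 23.0 FPKM with SB. The groups overlapped, because DMSO replicate 2 lay below SB replicate 1 (−0.93 ± 0.61, adjusted p = 0.756). The log2 fold change was −0.23 without DMSO replicate 1 and −1.63 without DMSO replicate 2. Within the replicate numbers it was −1.03 and −0.83. COL6A2, the highest collagen gene in each of the 4 libraries, was at 266 and 191 FPKM with DMSO and 194 and 137 FPKM with SB (−0.46 ± 0.26, adjusted p = 0.711), again with overlap. Its log2 fold change ran from −0.71 without SB replicate 1 to −0.22 without SB replicate 2. The COL6A3 to COL6A2 ratio was 0.0531 and 0.0734 with DMSO and 0.0213 and 0.0301 with SB, a mean log2 difference of −1.30 without overlap. The COL6A3 to COL6A1 and COL6A1 to COL6A2 ratios had mean log2 differences of −0.82 and −0.49, and for both the groups overlapped. COL6A5 and COL6A6, alternative α3-like chains, reached at most 0.0550 and 0.375 FPKM.

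Among the FACIT genes, only type IX chains passed the filter. COL9A2 was at 17.5 and 12.3 FPKM with DMSO and 6.32 and 4.32 FPKM with SB (−1.33 ± 0.26, adjusted p = 0.217). COL9A3 had means of 1.39 and 0.731 FPKM (−0.46), and its locus overlaps TCFL5 on the opposite strand, which was higher, at 6.81 and 4.24 FPKM with DMSO and 3.93 and 3.22 FPKM with SB. Type IX decorates type II fibrils in cartilage, and the third chain, COL9A1, reached at most 0.261 FPKM. Thus COL9A2 and COL2A1, whose products share a fibril, had opposite signs, COL2A1 being the higher one with SB.

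The multiplexins COL15A1 and COL18A1 are basement membrane collagens that carry glycosaminoglycan chains and release antiangiogenic fragments. COL15A1 was at 23.3 and 15.3 FPKM with DMSO and 9.68 and 6.82 FPKM with SB (−1.12 ± 0.28, adjusted p = 0.301). COL18A1, the third highest collagen gene by mean, was at 199 and 125 FPKM against 127 and 89.1 FPKM (−0.57 ± 0.31, adjusted p = 0.681). The COL18A1 groups overlapped, and its log2 fold change was −0.24 without DMSO replicate 1 and −0.90 without DMSO replicate 2. The COL18A1 locus overlaps SLC19A1 on the opposite strand, which was at 13.8 and 7.73 FPKM with DMSO and 16.0 and 9.57 FPKM with SB.

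The remaining tested genes were transmembrane collagens, COL7A1 and COL26A1. Of the transmembrane collagens, COL23A1 was at 9.67 and 8.63 FPKM with DMSO and 6.06 and 6.57 FPKM with SB (−0.47, adjusted p = 0.471). COL25A1, whose product is found in neurons and muscle, was at 5.95 and 8.64 FPKM against 6.15 and 7.16 FPKM (−0.10, adjusted p = 0.959). COL13A1 had means of 1.69 and 1.004 FPKM (−0.42). COL7A1, which forms the anchoring fibrils of skin, was at 6.15 and 6.10 FPKM with DMSO and 5.12 and 4.58 FPKM with SB (−0.29, adjusted p = 0.720).

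The COL26A1 level was 29.8 and 10.3 FPKM with DMSO and 20.8 and 10.5 FPKM with SB (−0.23 ± 0.57, adjusted p = 0.964). Its values followed the replicate number, and the sign was open: 0.49 without DMSO replicate 1 and 0.23 without SB replicate 2. COL25A1 also turned, to 0.14 without DMSO replicate 2.

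The other 18 genes were not tested. In 17 of them no library reached 1 FPKM. The exception was COL10A1, the collagen of hypertrophic cartilage, at 1.34 FPKM in DMSO replicate 2 alone and at most 0.0949 FPKM elsewhere. Among the rest were COL8A1 and COL8A2 (at most 0.241 and 0.116 FPKM), which encode the type VIII collagen of endothelial matrices, and the FACIT genes COL12A1, COL14A1, COL16A1, COL19A1, COL20A1, COL21A1 and COL22A1, with COL16A1 the highest at 0.629 FPKM. COL17A1 of hemidesmosomes and COL28A1 reached at most 0.275 and 0.156 FPKM. At these levels no difference could be read.

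Genes that modify, export, cleave, crosslink or bind collagen were followed on 6 lists with 55 genes, of which 41 were tested. By limma, again without the replicate number, 0 passed the adjusted threshold. At an unadjusted p under 0.05, 10 were lower (5.16% of all genes tested were) and 0 were higher (4.8% of all genes). Within both replicate numbers 34 were lower and 3 higher, against 30.6% and 40.9% of all genes, and the median log2 fold change was −0.29 against 0.04. ADAMTS2 and PCOLCE2 reached 1 FPKM in the DMSO group only and LAIR1 in the SB group only, so the filter favored the sign of these 3 genes.

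Prolyl and lysyl hydroxylases and the sugar transferases act on the chains inside the endoplasmic reticulum. Their list also held CRTAP, P3H4 and PPIB, which are not of these enzyme classes. Of 13 tested genes on it, 12 were lower within both numbers, where 30.6% of all genes were, and the median of the 13 was −0.29. P4HA2, a catalytic subunit of prolyl 4-hydroxylase, was at 12.9 and 12.4 FPKM with DMSO and 5.99 and 5.80 FPKM with SB (−0.99, adjusted p = 0.151). PLOD1, a lysyl hydroxylase, was at 99.1 and 83.1 FPKM against 67.2 and 58.1 FPKM (−0.53, adjusted p = 0.453), and P4HA1, the other main catalytic subunit, had a log2 fold change of −0.45 (adjusted p = 0.648).

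The chaperone and export list, with 8 of 8 tested, had a median of −0.28. SEC24D, a coat protein of the vesicles that carry procollagen, was at 15.8 and 16.0 FPKM with DMSO and 11.7 and 10.9 FPKM with SB (−0.46, adjusted p = 0.449). Its partner SEC23A and the prolyl isomerase FKBP14 stood at −0.27 and −0.30. SERPINH1, the collagen-specific chaperone, was at 225 and 224 FPKM against 188 and 206 FPKM (−0.19), a far smaller difference than that of COL1A1.

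Outside the cell, propeptides are removed and chains are crosslinked. ADAMTS2, which cleaves the amino-terminal propeptides of types I, II and III, was at 2.05 and 1.34 FPKM with DMSO and 0.393 and 0.292 FPKM with SB (−0.995, adjusted p = 0.301). PCOLCE, which enhances carboxy-terminal cleavage, and BMP1, which performs it, had log2 fold changes of −0.62 and −0.18. The median of the 5 tested genes was −0.18. Of the 4 tested crosslinking enzymes, whose median was −0.19, LOX was at 4.30 and 2.84 FPKM with DMSO and 1.80 and 1.87 FPKM with SB (−0.67, adjusted p = 0.462). LOXL2 had −0.39 with overlapping groups, and LOXL3 had 0.25.

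Among proteins bound to fibrils, 4 of 9 were tested and their median was −0.80. BGN, the small proteoglycan biglycan, had the lowest adjusted p of the 41 genes: 99.998 and 93.7 FPKM with DMSO against 37.0 and 32.6 FPKM with SB (−1.45, adjusted p = 0.0845). LUM, the fibril-spacing proteoglycan lumican, was at 6.63 and 8.79 FPKM against 2.16 and 4.91 FPKM (−0.999, adjusted p = 0.463). SPARC, a collagen-binding matrix protein and the most abundant of these, was at 787 and 578 FPKM against 508 and 392 FPKM (−0.59, adjusted p = 0.517).

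Of the collagen receptors, 7 of 10 were tested, with a median of −0.49. MRC2, the endocytic receptor that clears collagen fragments, was at 133 and 80.8 FPKM with DMSO and 45.5 and 25.6 FPKM with SB (−1.57, adjusted p = 0.279). DDR1, a receptor tyrosine kinase for collagen, was at 33.0 and 18.0 FPKM against 12.5 and 7.004 FPKM (−1.29, adjusted p = 0.388). ITGA2, an integrin chain for collagen, stood at −0.64. LAIR1, an inhibitory collagen receptor of leukocytes that passed the filter through the SB group alone, was at 0.221 and 0.296 FPKM against 1.72 and 0.742 FPKM (0.79).

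**Figure D5:**
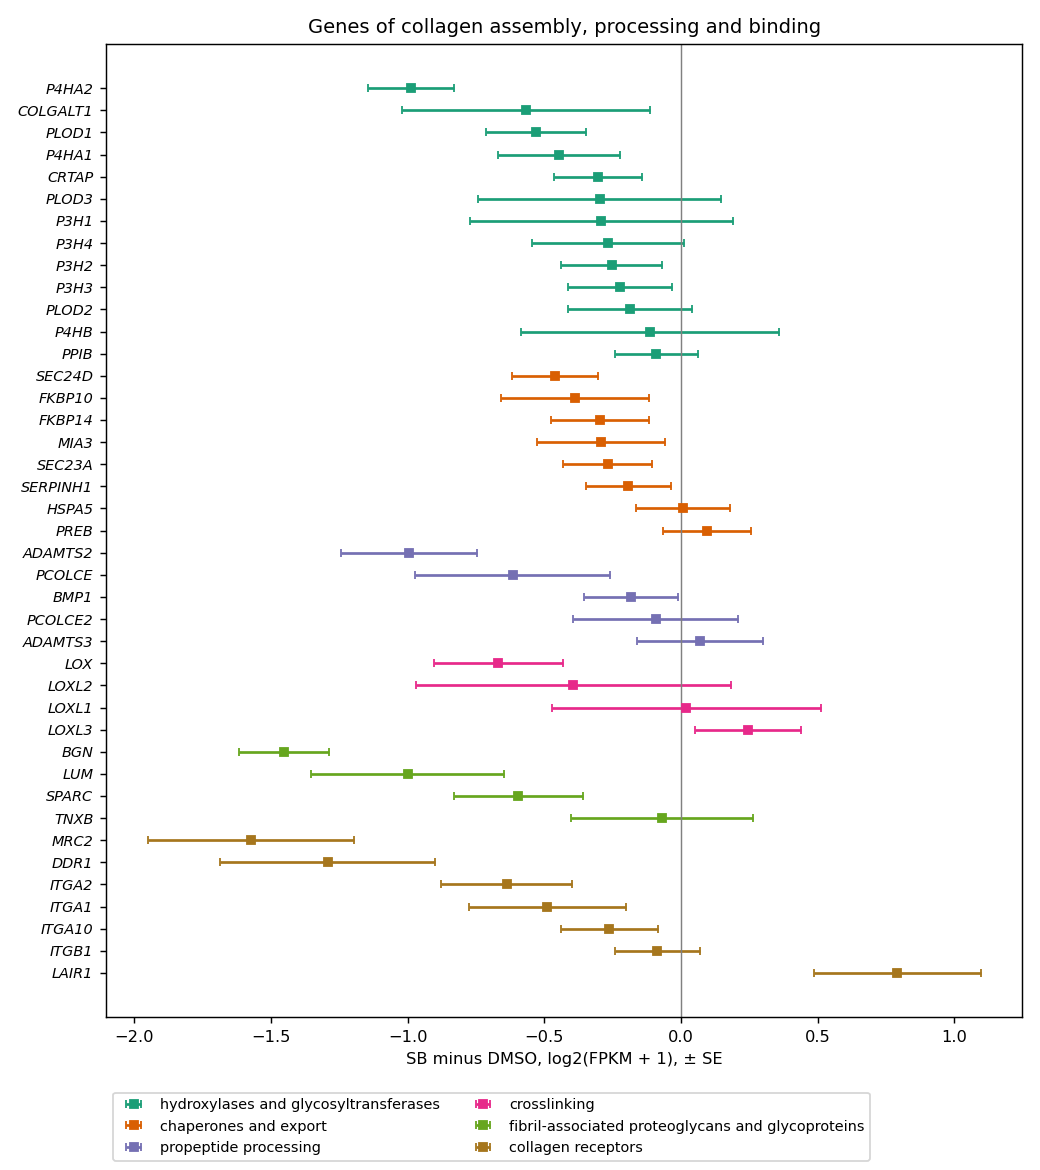
Difference between SB and DMSO on the log2(FPKM + 1) scale (horizontal axis; squares with bars are limma estimates ± SE over 4 libraries) for the 41 tested genes, 1 per row, colored by the 6 lists. Most squares lie left of 0, from MRC2 at −1.57 to LAIR1 at 0.79.

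Markers of several cell types differed between the groups beside the collagen values, and their part in the differences was not tested. The 10 endothelial markers summed to 2516 and 2088 FPKM with DMSO and 2484 and 2103 FPKM with SB, and 0 passed the adjusted threshold. Single members differed: CLDN5 was higher with SB, at 121 and 79.4 FPKM against 231 and 177 FPKM. CDH5 was lower, at 273 and 246 FPKM against 224 and 202 FPKM. Groups overlapped for the other endothelial markers. The 8 smooth muscle and pericyte markers, 6 of which reached 1 FPKM, summed to 299.9 and 378 FPKM against 153 and 162 FPKM, with MYH11 and ACTG2 near 0. The largest part of that sum in each library was RGS5, at 169 and 271 FPKM against 75.7 and 97.5 FPKM.

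The 10 fibroblast and mesenchymal markers summed to 399 and 284 FPKM with DMSO and 329.9 and 229.6 FPKM with SB, with overlap and mostly from THY1. The 6 that were tested had a median log2 fold change of −0.64, each below 0, and 0 passed the adjusted threshold. Among these, PDGFRA was at 4.03 and 5.59 FPKM against 2.10 and 2.41 FPKM. PRRX1, at 1.37 and 1.32 FPKM against 0.221 and 0.307 FPKM, passed the filter through the DMSO group alone. LUM, given above, is also on this list, while DCN, POSTN, TCF21 and DPT, which mark matrix-producing fibroblasts, stayed at or below 0.577 FPKM. The 9 endoderm and liver markers summed to 335 and 337 FPKM against 77.2 and 48.8 FPKM. Of these, 4 passed the adjusted test as lower (APOA1, AFP, TTR and APOA2), while ALB stayed below 0.5 FPKM. SOX17, a large part of the SB sums, hardly differed, at 53.3 and 17.5 FPKM with DMSO and 49.3 and 17.3 FPKM with SB. The study describes SOX17 as a factor that keeps endothelial identity, so it does not mark endoderm alone. The 6 epithelial markers summed to 255 and 251 FPKM against 116 and 124 FPKM. The 8 hematopoietic markers, with PTPRC near 0, had the higher sum with SB, 314 and 281 FPKM against 489 and 447 FPKM. The 8 cardiac markers, 4 of which reached 1 FPKM, summed to 50.5 and 27.4 FPKM against 12.3 and 6.82 FPKM. Most of that was NKX2-5, at 45.3 and 21.9 FPKM against 10.4 and 5.23 FPKM. The 5 pluripotency markers, with NANOG and SOX2 near 0, summed to 69.8 and 89.3 FPKM against 93.6 and 114 FPKM.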

How the data were processed

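RNA-seq was analysed from 4 libraries, 2 per group, grouped by their titles. The authors deposited FPKM values for 58365 rows with 1 column per library, and the sequencing and primary processing came from a service company. BWA, Bowtie, RSEM and the build hg19 are named in the submitters' processing notes. The loci follow GRCh38, however: 95.5% of identifiers had the same version in GENCODE release 29, and 99.8% of these had the same position. Starts in the table count from 0 and were made to count from 1. Whether reads were counted by strand is not given in the sources used here, which leaves overlapping genes uncertain. The depth is unknown, and an exact 0 can be a failed estimate (0 of 10 housekeeping genes were at 0).

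Values were transformed to log2(FPKM + 1), and the 14909 genes with a mean of at least 1 FPKM in at least 1 group were tested with limma 3.58.1 in R 4.3.3 (empirical Bayes with trend, group only, two-sided, Benjamini-Hochberg over all genes, threshold 0.05). The study names Student's t test in general and none for these libraries. The study states for its analyses in general that independent experiments were performed, but neither it nor the labels tie these 2 libraries per group to separate cultures. Where they share one, p-values measure only the spread between these libraries. Scripts were tested on simulated data. Python 3.11.15 was used for summaries. All collagen genes of at least 5 FPKM in a group were named with every library's value, other tested ones with group means, and of each pathway list the 3 genes with the smallest p, and also SERPINH1 and LAIR1, chosen after their values were seen. Members and lists were chosen with earlier results of these data known. Promoter sequences are RefSeq's on GRCh38.p14, with exon bases removed except between COL4A1 and COL4A2. The alternatives were other scalings, filters and pseudocounts, a replicate block and leaving out each library.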

Additional observations from a re-analysis of the deposited data

How the results depend on the processing

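The count of 0 collagen genes past the adjusted limma threshold stayed at 0 to 0 on leaving out each library, and at 0 with upper-quartile scaling, a pseudocount of 0.1, no filter, or at least 5 FPKM in at least 2 libraries. It was 1 (COL1A1) with quantile normalization and 1 with equal FPKM sums, a scaling chosen after seeing the data. For collagen pathway genes the leave-one-out counts were also 0 to 0. With the replicate number as a block it was 18 (16 lower, 2 higher) for collagen genes and 12 for pathway genes (all lower), against 1564 of all genes (10.5%). The labels do not say that a number marks a shared culture, so the block stayed an alternative. Deviations from the group means did correlate between libraries of the same number (r = 0.53). The group-only fit counts these shared deviations as spread, so its count of 0 depends on leaving the block out. With rows at 0 in all libraries included, also chosen after seeing the data, the counts were 12 and 6, against 2156 of all 58365 genes (3.69%). The added rows have a variance of 0, which makes that fit unreliable.

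The median log2 fold change of collagen genes (−0.53) was −0.33 under both settings without a filter, −0.64 with at least 5 FPKM and −0.71 with a pseudocount of 0.1. It ranged from −0.68 (without SB replicate 1) to −0.53 (without SB replicate 2). The mean collagen sum with SB stood at between −43.8% (without DMSO replicate 2) and −28.3% (without DMSO replicate 1) relative to DMSO. Of 308 values for single collagen genes under 12 alternatives, 273 kept their direction and side of the threshold, 32 kept direction and passed it, and 3 turned, each with 1 library left out: leave-one-out values ran from −0.96 to 0.49 for COL26A1, which was also above 0 (0.23) without SB replicate 2, and from −0.34 to 0.14 for COL25A1. Of all genes, 20 passed, against 31 with quantile normalization, 0 without a filter and 0 to 14 with a library left out. The cause of these shifts was not tested. Unknown depth limits the genes under 1 FPKM.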
